A study of Mus musculus with 8 samples.

Results

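The genes described here encode the soluble glutathione transferases, the glucuronosyltransferases and a small group of redox enzymes, measured by RNA sequencing of whole mouse kidneys. They were taken by symbol: glutathione transferase genes of the alpha, kappa, mu, omega, pi, theta and zeta classes, glucuronosyltransferase genes of families 1 to 3, and Nqo1, Hmox1, Gclc, Gclm, Txnrd1 and Srxn1, each with at least 80 counts summed over the 8 libraries. Of 48 genes matching by symbol, 37 met this minimum, out of 37583 Ensembl genes listed in the deposited counts. They comprise 18 glutathione transferase genes, 13 glucuronosyltransferase genes and 6 redox genes. Gsta1 with 110 counts and Ugt1a6b with 122 counts lay just inside the minimum, and Gstm6 with 55 counts and Ugt1a2 with 54 counts just outside. The other 9 genes below it were Gstm3, Gstp2, Gstt4, Ugt1a1, Ugt1a5, Ugt2a2, Ugt2b1, Ugt2b35 and Ugt2b36, with 1 to 29 counts each.

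The libraries fell into 2 groups of 4, labelled knockout and wildtype. The knockout mice carried a Cre recombinase driven by Six2, a gene of nephron progenitors, together with 2 floxed alleles of Tfap2a and 1 floxed and 1 WT allele of Tfap2b. These genes encode the transcription factors AP-2 alpha and AP-2 beta. The controls were littermates given as WT, and whether they carried Cre or floxed alleles is not stated. Recombination is limited to cells with a history of Six2, and a whole kidney also holds collecting duct, vessels, blood, immune cells and attached tissue. Age, sex, litter, hour of collection and batch are not in the labels, which also leave unsaid whether the libraries are from separate animals, so the p-values speak for the spread among these libraries alone.

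Glutathione transferases join the tripeptide glutathione to reactive compounds, which the kidney then trims to mercapturates for the urine. Glucuronosyltransferases attach a sugar acid to drugs, steroids and bile pigments so that they can be carried out of the cell. The redox enzymes make glutathione, break down heme or reduce quinones, peroxiredoxins and thioredoxin, and are known targets of the transcription factor NRF2, which binds antioxidant response elements.

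Gene counts totalled 13871861 to 15763526 in the knockout libraries and 14721847 to 16629301 in the wildtype libraries. Levels are given as CPM, counts scaled to the size of the library, after TMM scaling, and 3 counts corresponded to 0.188 to 0.223 CPM. Neither targeted gene was lower under the knockout label: Tfap2a was at 5.05 ± 0.99 CPM in knockout and 4.22 ± 1.08 CPM in wildtype libraries (SD, n = 4 each), and Tfap2b at 79.97 ± 20.3 CPM in knockout and 78.3 ± 20.5 CPM in wildtype libraries. A gene-level count also takes in exons outside a deleted part, so directions here follow labels that these counts did not bear out. The tissue label was checked against 12 proximal tubule markers, which summed to 42210.0 to 69000.0 CPM in knockout and 54570.0 to 64730.0 CPM in wildtype libraries. Most of this was Kap, an androgen-responsive tubule gene, and the other 11 summed to 13250.0 to 17230.0 CPM in knockout and 12900.0 to 17290.0 CPM in wildtype libraries. Sex is not in the labels, but every library held Y-linked transcripts. Ddx3y, on the Y chromosome, was at 72.1 to 92.3 CPM and Xist at 0.569 to 1.00 CPM over the 8 libraries. Markers of attached adrenal tissue summed to 914 CPM in knockout replicate 2 and 930 CPM in wildtype replicate 1, against 5.82 to 12.4 CPM in the other 6 libraries. The 11 markers of liver, which also expresses many of these genes, summed to 37.5 to 156 CPM in knockout and 38.7 to 105 CPM in wildtype libraries. Except in knockout replicate 3, most of this was Ttr, at 0.749 to 114 CPM over the 8 libraries, and Fga, at 17.1 to 36.6 CPM. The other 9 summed to 16.9 to 19.2 CPM in knockout and 12.9 to 17.2 CPM in wildtype libraries. In knockout replicate 3 these 9 gave 19.2 of 37.5 CPM. The lowest of the 11 included Ahsg, which was at no more than 0.0681 CPM, Cps1 at no more than 0.258 CPM and Fgb at no more than 0.519 CPM in any library.

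Per kilobase of exon, the kidney transcript of this group with the highest mean level was Ugt3a2, at 606 CPM per kb over the 8 libraries. The UGT3A enzymes are known, in human, to use other sugars than glucuronic acid. Next in mean level came Ugt2b38 at 226, Gstm1 at 193, Gclc at 105, Gstm5 at 98.5, Ugt3a1 at 97.3 and Ugt2b37 at 89.8 CPM per kb. Ugt1a6b at 0.419, Gsto2 at 0.765 and Gsta1 at 0.936 CPM per kb were the lowest. These levels are divided by all exons, though reads in exons shared by UGT1A genes cannot be given to 1 gene. Only 39.4% of the exon bases of Ugt1a6b belong to no other gene. The UGT1A levels are thus understated, and the place of Ugt1a6b as the lowest is uncertain. The place of Ugt2b38 in this order is a mean of libraries that ran from 0.190 to 1635 CPM. Gclc, Gstm5, Ugt3a1 and Ugt2b37 lay closer to each other than their own libraries did.

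**Figure D1:**
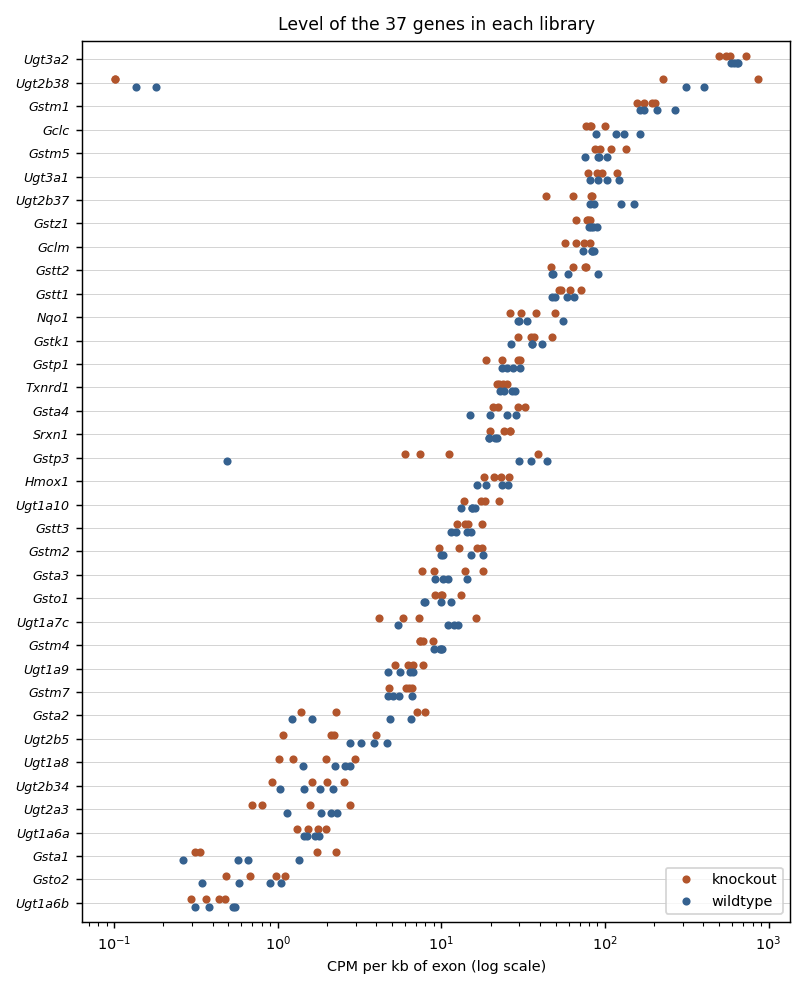
Level of each of the 37 genes in CPM per kilobase of annotated exon (log axis), 1 point per library, knockout libraries in orange just above wildtype libraries in blue, with genes ordered by mean level. Ugt3a2 is at the top with a mean of 606 CPM per kb, and Ugt2b38 and Gstp3 are the genes whose libraries lie far apart within both groups. UGT1A levels are understated, since they are divided by all exons although reads in shared exons cannot be given to 1 gene.

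Knockout and wildtype kidneys were compared gene by gene. No member passed edgeR's quasi-likelihood test: 0 of the 36 tested genes had a Benjamini-Hochberg adjusted p under 0.05, as did 0% of the 14433 genes tested in all, and the smallest edgeR adjusted p among them was 0.957. DESeq2 and limma-voom also called 0 members. At an unadjusted p under 0.05 edgeR gave 0 members higher in knockout libraries, where 2.17% of all tested genes were, and 3 lower, where 1.84% of all tested genes were. DESeq2 and limma-voom each also had 3 members at an unadjusted p under 0.05. The 3 genes in edgeR's fit were Gclc, Ugt2b37 and Gstm4. The groups did not overlap for 0 members in the higher direction, against 1.03% of all tested genes, and for 1 in the lower direction, Gstm4, against 0.942% of all tested genes. Gsta1 had too few counts to be tested.

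Of the 36 tested members, 19 had a positive log2 difference (knockout minus wildtype) and 17 a negative one, with a median of 0.05, against a median of 0.01 and 51.3% positive over all genes tested. The glutathione transferases had 12 positive and 5 negative differences (median 0.12), the glucuronosyltransferases 5 positive and 8 negative (median -0.09), and the redox genes 2 positive and 4 negative (median -0.08). The median ratio of the highest to the lowest library was 1.79 for the members, against 1.60 over 14406 genes with a count in every library. A ratio above 3 was seen in 8 of 36 members and in 1605 of the 14406 genes. The 8 were Ugt2b38, Gstp3, Gsta2, Ugt2b5, Ugt2a3, Ugt1a7c, Ugt2b37 and Gsto2.

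**Figure D2:**
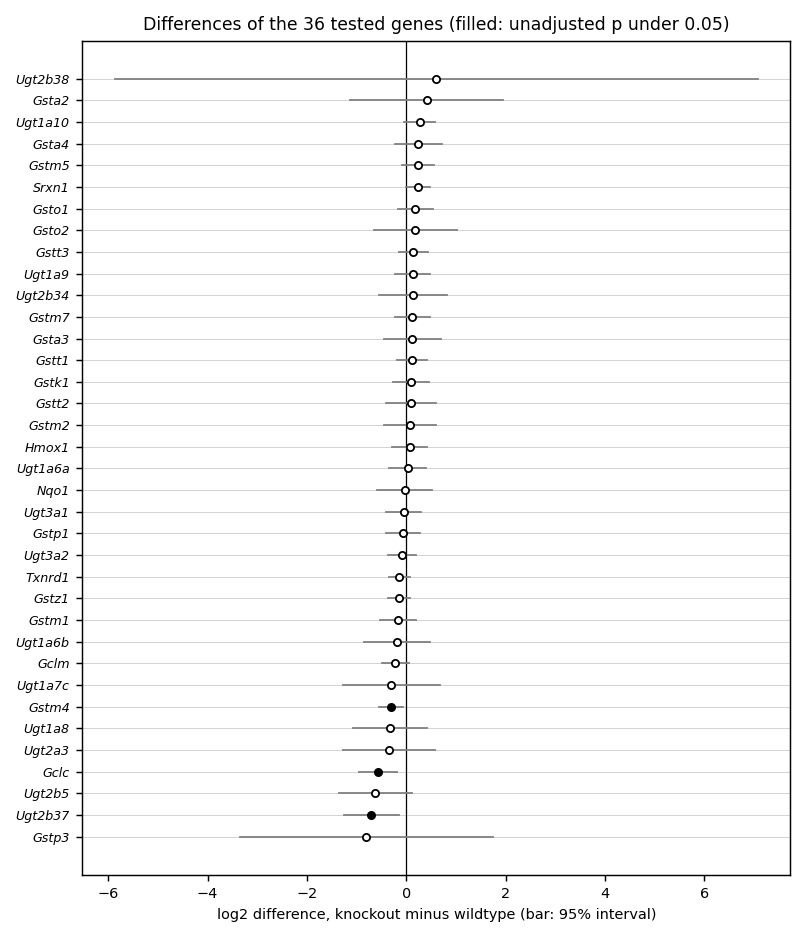
Log2 difference, knockout minus wildtype, with its 95% interval from the edgeR fit for the 36 tested genes, ordered by size, with filled points at an unadjusted p under 0.05. The intervals of Ugt2b38 and Gstp3 are the widest, and only those of Gstm4, Gclc and Ugt2b37 lie wholly below 0.

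Among the UGT2 genes, which encode steroid- and drug-conjugating enzymes of the endoplasmic reticulum, Ugt2b38 was either near absent or among the most abundant transcripts of the group. Ugt2b38 (ENSMUSG00000061906, chromosome 5, 87409942 to 87424203 on GRCm38, minus strand) had 3, 3, 22030 and 6424 counts across knockout replicates 1 to 4, against 5, 12168, 9356 and 4 counts across wildtype replicates 1 to 4. In CPM these were 0.190, 0.191, 1635 and 429 in the knockout libraries and 0.340, 762, 591 and 0.258 in the wildtype libraries. Knockout replicates 3 and 4 and wildtype replicates 2 and 3 were thus high, the other 2 libraries of each group held 3 to 5 reads, and the groups overlapped over the whole range. The log2 difference was 0.61 (95% interval -5.87 to 7.09, SE 2.68; adjusted p = 0.986 by edgeR). It was -0.39 by limma-voom and -1.24 without knockout replicate 3. Of the 50-base exon stretches along its longest protein-coding transcript, 37.4% also occur in another gene, so part of its reads can be lost.

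Ugt2b37 (ENSMUSG00000057425, chromosome 5, 87240493 to 87254804, minus strand) is a neighbour in the same gene cluster and showed no such split. It was at 121, 156, 159 and 82.9 CPM across knockout replicates 1 to 4, against 154, 163, 239 and 287 CPM across wildtype replicates 1 to 4. Knockout replicate 4 was the lowest and wildtype replicate 4 the highest, and knockout replicates 2 and 3 lay above the lowest wildtype library. Means were 129 ± 35.5 CPM in knockout and 211 ± 63.4 CPM in wildtype libraries, a log2 difference of -0.70 (95% interval -1.26 to -0.15, SE 0.25; adjusted p = 0.957 by edgeR). The difference was -0.35 without knockout replicate 4 and wildtype replicate 4, whose clock genes set them apart. Npas2, a clock transcription factor, was at 18.3 CPM in this knockout library and 16.3 CPM in this wildtype library, against 1.22 to 4.19 CPM in the remaining 6 libraries.

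The promoters of both genes, 250 bases before to 50 after the annotated start in RefSeq on GRCm38.p6, are shown because the genes differ so much in how their libraries spread while their start regions are nearly alike. The alignment paired 286 bases, of which 273 (95.5%) are identical; capitals mark bases with no identical partner. Ugt2b38 is chr5:87424154-87424453 and Ugt2b37 is chr5:87254739-87255038, both on the minus strand.
Ugt2b38: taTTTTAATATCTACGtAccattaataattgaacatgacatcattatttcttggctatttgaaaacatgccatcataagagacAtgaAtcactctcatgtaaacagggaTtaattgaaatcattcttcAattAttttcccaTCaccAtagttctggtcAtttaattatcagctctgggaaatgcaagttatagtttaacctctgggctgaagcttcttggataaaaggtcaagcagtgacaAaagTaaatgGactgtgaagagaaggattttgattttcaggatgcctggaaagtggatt
Ugt2b37: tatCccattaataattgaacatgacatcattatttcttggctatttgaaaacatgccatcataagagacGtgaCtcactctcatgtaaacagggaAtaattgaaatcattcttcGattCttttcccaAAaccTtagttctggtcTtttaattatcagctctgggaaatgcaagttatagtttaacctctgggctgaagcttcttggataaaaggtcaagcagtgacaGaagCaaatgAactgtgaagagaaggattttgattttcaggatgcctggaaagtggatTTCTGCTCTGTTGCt

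The 3 remaining UGT2 genes were low. Ugt2b5 was at 4.12, 7.40, 3.93 and 2.01 CPM across knockout replicates 1 to 4, against 5.99, 5.13, 7.21 and 8.59 CPM across wildtype replicates 1 to 4 (log2 difference -0.62, SE 0.33; edgeR adjusted p = 0.957). It had the same order of group means as Ugt2b37, with knockout replicate 4 again lowest and wildtype replicate 4 again highest. Its difference was -0.24 without both of these libraries, -0.38 without knockout replicate 4 and -1.01 without knockout replicate 2. Its promoter shares 247 of 276 aligned bases with Ugt2b37 and 261 of 290 with Ugt2b38, and 41.7% of its exon stretches occur in another gene. Ugt2b34 ranged over 3.96 to 10.96 CPM in knockout and 4.42 to 9.33 CPM in wildtype libraries, and Ugt2a3 over 1.47 to 5.84 CPM in knockout and 2.40 to 4.91 CPM in wildtype libraries.

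The summed UGT2 level followed Ugt2b38, at 661 ± 784 CPM in knockout and 567 ± 385 CPM in wildtype libraries. The log2 ratio of the means was 0.22, and it was -1.02 without knockout replicate 3 and -0.08 without wildtype replicate 1. Without Ugt2b38 it was 144 ± 33.5 CPM in knockout and 228 ± 65.3 CPM in wildtype libraries, and the ranges met at 171 CPM in knockout replicate 3 and 169 CPM in wildtype replicate 1. The log2 ratio was then -0.66, or -0.34 with the clock-shifted libraries left out. Class sums carry no test. In the same libraries, 9 of 10 tested genes of an androgen-responsive kidney list had negative differences (median -0.43). Over all genes tested, 51.3% were positive and the median was 0.01. Cyp7b1 and Akr1c21 of the list were near level, with log2 differences of -0.0006 and 0.02. Odc1, the first enzyme of polyamine synthesis and 1 of these genes, was at 101, 179, 395 and 169 CPM across knockout replicates 1 to 4, against 253, 715, 342 and 457 CPM across wildtype replicates 1 to 4. Kap made up most of the list's total. The other 9 genes summed to 5768, 7264, 13450.0 and 7237 CPM across knockout replicates 1 to 4, against 8910.0, 14290.0, 11110.0 and 10730.0 CPM across wildtype replicates 1 to 4, and the list's part in the UGT2 values was not tested. In bulk samples such as these, fewer cells of a type and less RNA per cell cannot be told apart.

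**Figure D3:**
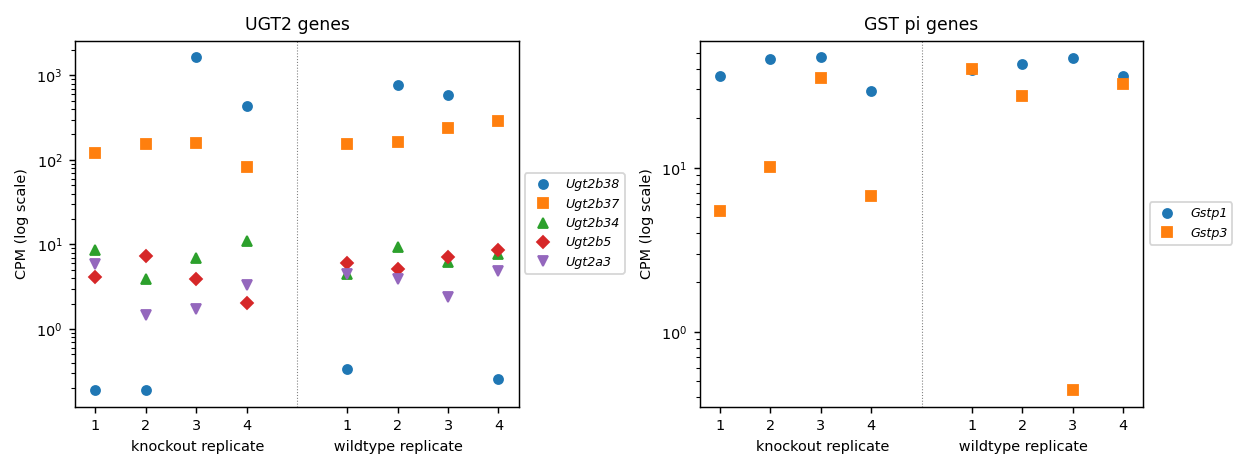
CPM (log axis) of the UGT2 genes (left) and of the pi-class glutathione transferase genes (right) in each library, knockout replicates left of the dotted line and wildtype replicates right of it. Ugt2b38 lies between 429 and 1635 CPM in 4 libraries and at or below 0.340 CPM in the other 4, and Gstp3 is at 0.442 CPM in wildtype replicate 3 alone.

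The UGT1A genes share their last exons, and each adds a first exon of its own that sets what the enzyme binds. Between 35.7% and 49.7% of each member's exon bases belong to no other gene, so reads within the shared exons cannot be given to 1 gene. Of the 50-base exon stretches, 59.7% (Ugt1a8) to 100% (Ugt1a6a) occur in another gene, with 80.7% for Ugt1a6b, so the levels of Ugt1a6a and Ugt1a6b are uncertain even where their exons are their own. The 6 members with enough counts summed to 83.3, 79.2, 137 and 111 CPM across knockout replicates 1 to 4, against 73.6, 117, 112 and 110.1 CPM across wildtype replicates 1 to 4. Means were close, at 102.5 ± 26.8 CPM in knockout and 103 ± 19.9 CPM in wildtype libraries. The members did not rank the libraries alike.

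Ugt1a10 (ENSMUSG00000090165, chromosome 1, 88055388 to 88219004, plus strand) was at 42.1, 31.1, 39.5 and 51.3 CPM across knockout replicates 1 to 4, against 30.0, 34.8, 34.95 and 36.2 CPM across wildtype replicates 1 to 4. In 3 of the 4 knockout libraries it was above the highest wildtype library, and the log2 difference was 0.27 (95% interval -0.05 to 0.59, SE 0.14; adjusted p = 0.957 by edgeR). Ugt1a9 ran from 11.4 to 16.9 CPM in knockout and from 10.4 to 14.8 CPM in wildtype libraries.

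Ugt1a7c, on the same stretch of chromosome 1, was at 17.4, 24.6, 68.3 and 30.6 CPM across knockout replicates 1 to 4, against 22.9, 53.2, 50.6 and 46.2 CPM across wildtype replicates 1 to 4. Knockout replicate 3 was the highest library, and knockout replicates 1 and 2 and wildtype replicate 1 were the lowest. Its log2 difference was -0.30 (95% interval -1.27 to 0.68, SE 0.43; adjusted p = 0.957 by edgeR). The value was -0.84 without knockout replicate 3, -0.07 without knockout replicate 1 and -0.02 without knockout replicates 2 and 4, those with high heat shock transcripts. Ugt1a8 had the same lowest and highest libraries, at 2.28, 2.74, 6.60 and 4.41 CPM across knockout replicates 1 to 4, against 3.20, 6.14, 5.75 and 4.97 CPM across wildtype replicates 1 to 4. Ugt1a6a ranged over 5.65 to 8.55 CPM in knockout and 6.26 to 7.69 CPM in wildtype libraries, and Ugt1a6b over 0.702 to 1.14 CPM in knockout and 0.749 to 1.31 CPM in wildtype libraries.

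**Figure D4:**
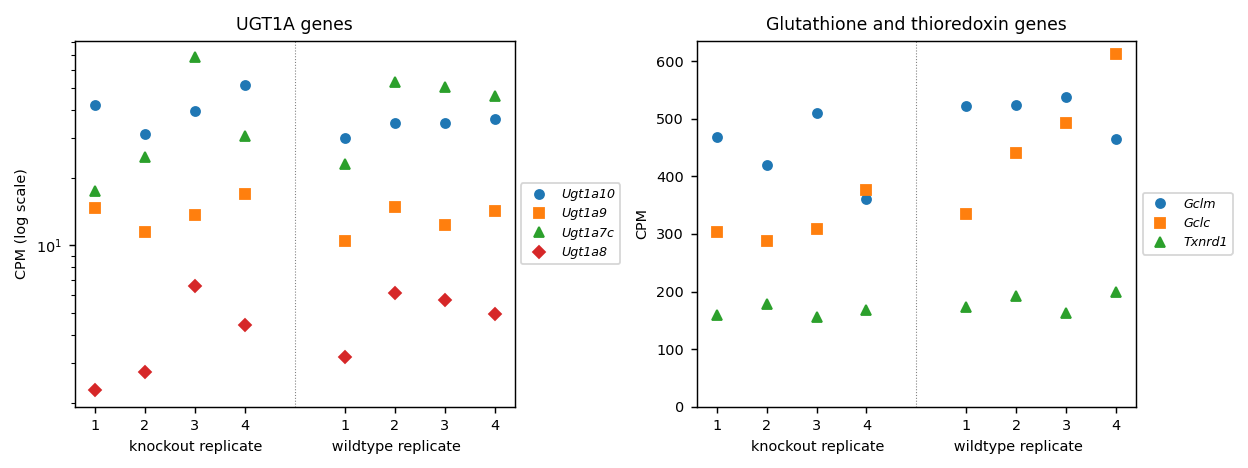
CPM in each library of UGT1A genes (left, log axis) and of Gclm, Gclc and Txnrd1 (right, linear axis from 0), knockout replicates left of the dotted line and wildtype replicates right of it. Ugt1a7c and Ugt1a8 are low in knockout replicates 1 and 2 and wildtype replicate 1, and the wildtype libraries for Gclc lie between 334 and 613 CPM against 288 to 377 CPM in knockout libraries.

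The UGT3A genes supplied most of the glucuronosyltransferase family's counts outside Ugt2b38. Ugt3a2 (chromosome 15, 9335550 to 9370955) was at 1804, 1551, 2250.0 and 1694 CPM across knockout replicates 1 to 4, against 1818, 2011, 2002 and 1912 CPM across wildtype replicates 1 to 4. The knockout libraries held both its highest and its lowest value, with means of 1825 ± 302 CPM in knockout and 1936 ± 90.3 CPM in wildtype libraries (log2 difference -0.09, SE 0.13; edgeR adjusted p = 0.957). Ugt3a1, its neighbour, was at 240.3, 209.6, 255 and 315 CPM across knockout replicates 1 to 4, against 215, 273, 241 and 327 CPM across wildtype replicates 1 to 4. Its ranges overlapped almost completely (log2 difference -0.05, SE 0.16). Over all 13 glucuronosyltransferases the sum was 2843 ± 1102 CPM in knockout and 2870.0 ± 494 CPM in wildtype libraries, and without Ugt2b38 it was 2327 ± 343 CPM in knockout and 2531 ± 173 CPM in wildtype libraries.

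Among the glutathione transferases, the pi class held the widest spread. Gstp3 (ENSMUSG00000058216, chromosome 19, 4057477 to 4059569, minus strand) was at 5.46, 10.1, 35.3 and 6.75 CPM across knockout replicates 1 to 4, against 40.2, 27.2, 0.442 and 32.2 CPM across wildtype replicates 1 to 4. Each group had 1 library apart from the rest, knockout replicate 3 on the high side and wildtype replicate 3 on the low side. The log2 difference was -0.80 (95% interval -3.35 to 1.74, SE 1.07; adjusted p = 0.957 by edgeR), and by limma-voom -0.09. Leaving out knockout replicate 3 gave -1.75, and leaving out wildtype replicate 3 gave -1.21. None of its 50-base exon stretches occurs in another gene. Gstp1, the main pi-class enzyme in most tissues, was steady at 36.2, 45.8, 47.1 and 29.2 CPM across knockout replicates 1 to 4, against 39.2, 42.7, 46.8 and 36.3 CPM across wildtype replicates 1 to 4 (log2 difference -0.06, SE 0.15). Its near copy Gstp2 had 29 counts in all, and 62.3% of the exon stretches of Gstp1 occur in another gene.

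The mu class, which takes part in the conjugation of epoxides and many drugs, was led by Gstm1 and Gstm5. Gstm4 (ENSMUSG00000027890, chromosome 3, 108040408 to 108044894, minus strand) was at 15.2, 12.6, 13.2 and 12.7 CPM across knockout replicates 1 to 4, against 15.5, 17.2, 16.9 and 16.7 CPM across wildtype replicates 1 to 4. Each knockout library was below each wildtype library, but knockout replicate 1 and wildtype replicate 1 were almost level. Means were 13.4 ± 1.19 CPM in knockout and 16.6 ± 0.78 CPM in wildtype libraries, a log2 difference of -0.30 (95% interval -0.55 to -0.06, SE 0.11; adjusted p = 0.957 by edgeR), which did not pass.

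Gstm1 was at 254, 299, 232 and 287 CPM across knockout replicates 1 to 4, against 306, 241, 255 and 397 CPM across wildtype replicates 1 to 4 (log2 difference -0.16, SE 0.16). Gstm5 leaned the other way, at 173, 120.0, 112 and 140.1 CPM across knockout replicates 1 to 4, against 131, 96.5, 116 and 118 CPM across wildtype replicates 1 to 4 (log2 difference 0.24, SE 0.15). For both genes the groups overlapped. Gstm2 ranged over 16.2 to 29.8 CPM in knockout and 16.7 to 30.1 CPM in wildtype libraries, and Gstm7 over 7.72 to 10.6 CPM in knockout and 7.58 to 10.6 CPM in wildtype libraries. The class sum was 451 ± 43.5 CPM in knockout and 463 ± 78.8 CPM in wildtype libraries.

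The alpha class, whose enzymes act on products of lipid peroxidation, had 3 tested members and positive differences in each. Gsta3 was at 78.3, 60.9, 39.4 and 33.2 CPM across knockout replicates 1 to 4, against 62.5, 44.5, 39.8 and 47.5 CPM across wildtype replicates 1 to 4 (log2 difference 0.13, SE 0.26). Gsta4, which clears hydroxynonenal, was at 41.2, 37.2, 26.2 and 27.9 CPM across knockout replicates 1 to 4, against 36.2, 18.9, 25.1 and 31.8 CPM across wildtype replicates 1 to 4 (log2 difference 0.24, SE 0.21). Gsta2 was at 8.37, 9.38, 1.63 and 2.67 CPM across knockout replicates 1 to 4, against 7.69, 1.44, 1.90 and 5.68 CPM across wildtype replicates 1 to 4 (log2 difference 0.41, SE 0.67). Knockout replicates 1 and 2 and wildtype replicate 1 were the 3 highest libraries for all 3 genes, and the groups overlapped for each. Without knockout replicate 1 the difference of Gsta3 was -0.13. That of Gsta2 was 0.14 without knockout replicate 1, 0.03 without knockout replicate 2 and 0.89 without wildtype replicate 1.

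Fat markers were highest in the same 3 libraries. Their 7 genes summed to 774, 833, 249.9 and 657 CPM across knockout replicates 1 to 4, against 846, 294, 239.5 and 459.9 CPM across wildtype replicates 1 to 4, with 7 of 7 differences positive, and their part in the alpha-class values was not tested. Red cell markers were highest in the same 3 libraries, at 7814, 1237, 246 and 676 CPM across knockout replicates 1 to 4, against 1376, 245, 177 and 290.3 CPM across wildtype replicates 1 to 4, with 5 of 5 tested differences positive. Over all genes tested, 51.3% were positive. Proximal tubule markers without Kap were lowest in the same 3 libraries. They summed to 13250.0 and 13290.0 CPM in knockout replicates 1 and 2 and 12900.0 CPM in wildtype replicate 1, against 16120.0 to 17290.0 CPM elsewhere. The part of these markers in the alpha-class values was not tested either. Gsta1, the fourth alpha gene, ranged over 0.297 to 2.16 CPM in knockout and 0.253 to 1.29 CPM in wildtype libraries. Of its exon stretches, 89.7% occur in another gene, as do 64.2% of those of Gsta2, so the levels of this pair are uncertain.

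The theta, zeta, kappa and omega classes differed little. Gstt2 was at 320.4, 315, 267 and 195 CPM across knockout replicates 1 to 4, against 378, 201, 248 and 198 CPM across wildtype replicates 1 to 4 (log2 difference 0.10, SE 0.23). Gstt1, which acts on small halogenated compounds, ranged over 79.9 to 109.6 CPM in knockout and 72.4 to 98.7 CPM in wildtype libraries (log2 difference 0.12, SE 0.13). Gstt3 ranged over 47.9 to 68.4 CPM in knockout and 44.3 to 58.3 CPM in wildtype libraries. The theta ranges overlapped in each case. Gstz1, which isomerises maleylacetoacetate in tyrosine breakdown, was at 339.9, 398, 411 and 402 CPM across knockout replicates 1 to 4, against 456, 417, 404 and 427 CPM across wildtype replicates 1 to 4. Only knockout replicate 3 lay above the lowest wildtype library, yet the log2 difference of -0.14 (SE 0.10, 95% interval -0.36 to 0.08) did not pass (edgeR adjusted p = 0.957). Gstk1, a mitochondrial and peroxisomal form, was at 54.9 ± 11.1 CPM in knockout and 51.2 ± 8.81 CPM in wildtype libraries. Gsto1, which reduces dehydroascorbate, was at 21.4 ± 3.52 CPM in knockout and 18.8 ± 3.48 CPM in wildtype libraries, and Gsto2 at 1.91 ± 0.67 CPM in knockout and 1.69 ± 0.74 CPM in wildtype libraries. All 18 glutathione transferases together summed to 1486 ± 106 CPM in knockout and 1500.0 ± 191 CPM in wildtype libraries.

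**Figure D5:**
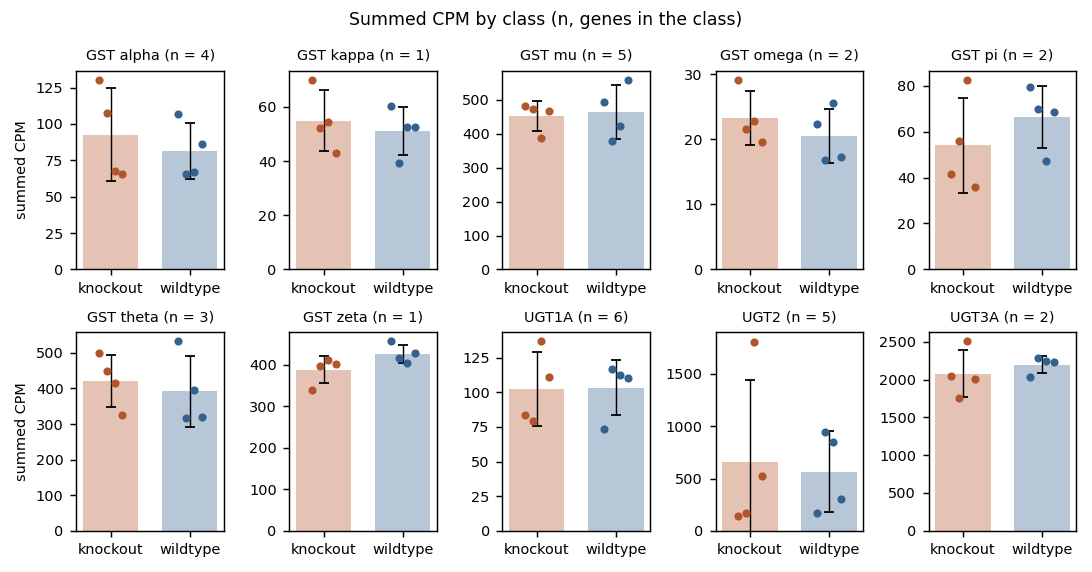
Summed CPM of the genes of each class per library (points), with group means (bars) and SD over 4 libraries (error bars), knockout left of wildtype, each panel with its own axis from 0. The ranges of the groups overlap in all 10 classes, and the UGT2 sum in knockout replicate 3 reaches 1806 CPM.

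Of the 6 redox genes, the difference was greatest for a subunit of glutamate-cysteine ligase, the rate-limiting enzyme of glutathione synthesis. Gclc (ENSMUSG00000032350, chromosome 9, 77754535 to 77794485, plus strand), its catalytic subunit, was at 303, 288, 308 and 377 CPM across knockout replicates 1 to 4, against 334, 440.3, 492 and 613 CPM across wildtype replicates 1 to 4. Knockout replicate 4 lay above wildtype replicate 1, and the other 3 knockout libraries were below every wildtype library. Means were 319 ± 39.7 CPM in knockout and 470.1 ± 116 CPM in wildtype libraries, a log2 difference of -0.56 (SE 0.17, 95% interval -0.94 to -0.18). Gclc had the lowest unadjusted p of the members, and its edgeR adjusted p was 0.957. Of 12 proximal tubule markers, 8 had negative differences (median -0.11), where 51.3% of all genes tested had positive ones (median 0.01). The markers summed to 54630.0, 49800.0, 69000.0 and 42210.0 CPM across knockout replicates 1 to 4, against 64730.0, 60260.0, 60600.0 and 54570.0 CPM across wildtype replicates 1 to 4. Kap carried these sums. Without it the other 11 markers summed to 13250.0, 13290.0, 17230.0 and 16120.0 CPM across knockout replicates 1 to 4. Across wildtype replicates 1 to 4 they summed to 12900.0, 17290.0, 16460.0 and 17170.0 CPM. Wildtype replicate 1 was thus the lowest library, and it was also the lowest wildtype library for Gclc. Knockout replicates 3 and 4 were near wildtype replicates 2 to 4 in this sum, while their Gclc was below that of all these wildtype libraries. Slc7a13, with the lowest p of this list, had a log2 difference of -0.54 (SE 0.16) and overlapping groups. The part of the marker genes in the Gclc difference was not tested.

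Gclm (chromosome 3, 122245557 to 122270732), the modifier subunit, was at 468, 419.5, 511 and 360.1 CPM across knockout replicates 1 to 4, against 522, 524, 538 and 465 CPM across wildtype replicates 1 to 4. Knockout replicates 1 and 3 lay above the lowest wildtype library, and the log2 difference was -0.22 (95% interval -0.49 to 0.05, SE 0.12; adjusted p = 0.957 by edgeR). Txnrd1, the cytosolic thioredoxin reductase, was at 159.9, 178, 155 and 169 CPM across knockout replicates 1 to 4, against 172, 193, 163 and 199 CPM across wildtype replicates 1 to 4 (log2 difference -0.14, SE 0.10). Srxn1, which restores overoxidised peroxiredoxins, was at 68.1, 74.1, 55.8 and 74.1 CPM across knockout replicates 1 to 4, against 62.1, 55.3, 54.9 and 59.8 CPM across wildtype replicates 1 to 4. It was above the highest wildtype library in 3 of the 4 knockout libraries (log2 difference 0.23, SE 0.11, 95% interval -0.01 to 0.47; edgeR adjusted p = 0.957). The 6 redox genes thus did not lean one way.

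Hmox1, which breaks down heme, was at 36.5, 45.4, 32.1 and 40.6 CPM across knockout replicates 1 to 4, against 29.0, 41.0, 32.7 and 44.8 CPM across wildtype replicates 1 to 4, with the groups fully interleaved. Nqo1, which reduces quinones, was at 59.1, 76.4, 41.1 and 47.9 CPM across knockout replicates 1 to 4, against 86.5, 46.1, 45.6 and 51.7 CPM across wildtype replicates 1 to 4. Its highest library in each group was the one with adrenal markers, knockout replicate 2 with 914 CPM and wildtype replicate 1 with 930 CPM of those markers. The log2 difference of Nqo1 was -0.03 (SE 0.25) with these libraries and 0.05 without them. That of Hmox1 was 0.07 (SE 0.16) with them and -0.11 without them.

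The antioxidant response element core TGACNNNGC was searched on both strands of the promoter windows, as was the AP-2 consensus GCCNNNGGC, which reads the same on either strand. The first occurs in 12.4% of all promoters and in 6 of 39 member promoters (15.4%), those of Gsta3, Gstm5, Gstm7, Gclm, Txnrd1 and Srxn1. The second occurs in 16.6% of all promoters and in 5 of 39 member promoters (12.8%), those of Gsta3, Gclm, Txnrd1, Ugt3a1 and Gsto2. Gsta3 holds both in the same promoter, at separate places, and Txnrd1 holds them in different promoters. Gclm also holds both in the same promoter, with AP-2 matches beginning at bases -161, -5, 3 and 36 relative to the start. Of its matches, the response element (chr3:122245413-122245441) and the first AP-2 match (chr3:122245386-122245414) are shown beside the response element matches of Txnrd1 (chr10:82859104-82859132) and Srxn1 (chr2:152105542-152105570), since these are the redox genes with a match among the 4 that the table holds, Gclc and Hmox1 not being in it; all are written on the plus strand with the match in capitals. No redox gene passed the test, and a match in these windows is no evidence of binding.
Gclm, response element: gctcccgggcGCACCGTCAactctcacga
Gclm, AP-2: agcgcgggcgGCCATTGGCtgagcggcgc
Txnrd1, response element: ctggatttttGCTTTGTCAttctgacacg
Srxn1, response element: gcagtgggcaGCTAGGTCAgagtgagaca

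The rest of the conjugation pathway was read from lists of related genes, and none of these genes passed the test by edgeR. Over all genes tested, 51.3% of differences were positive. At an unadjusted edgeR p under 0.05, 2.17% of all genes tested were higher and 1.84% lower in knockout libraries. The groups did not overlap for 1.03% of all genes tested in the higher direction and 0.942% in the lower direction. Among 10 genes of mercapturate formation, which turn glutathione conjugates into urinary products, 8 differences were negative (median -0.19). Cndp2, a dipeptidase, was the 1 with an unadjusted p under 0.05, at 1644, 1548, 2786 and 1585 CPM across knockout replicates 1 to 4, against 2149, 3486, 2382 and 3141 CPM across wildtype replicates 1 to 4 (log2 difference -0.56, SE 0.22). Acy3, which deacetylates mercapturates, had a log2 difference of -0.46 (SE 0.23). The groups did not overlap for Acy1, another deacetylase, at 452, 430.0, 467 and 412 CPM across knockout replicates 1 to 4, against 536, 501, 470.2 and 476 CPM across wildtype replicates 1 to 4 (log2 difference -0.17). Of 21 glutathione synthesis and recycling genes, 13 differences were positive and 8 negative (median 0.02), with Ggt1, which cleaves extracellular glutathione, at -0.31 (SE 0.17) and Gpx3, the plasma glutathione peroxidase, at 0.23 (SE 0.14).

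Among 6 tested membrane glutathione transferases and related genes, 4 differences were positive, and Mgst3 had the largest at 0.44 (SE 0.22). For glucuronic acid supply and removal, 4 of 9 were positive. Uxs1, which turns UDP-glucuronic acid into UDP-xylose, was the 1 gene of these lists whose knockout libraries all lay above the wildtype libraries. Of all genes tested, 1.03% did so. Uxs1 was at 74.4, 49.4, 47.6 and 48.3 CPM across knockout replicates 1 to 4, against 47.0, 42.1, 46.8 and 46.2 CPM across wildtype replicates 1 to 4. Knockout replicate 1 stood apart, and the other 3 exceeded the highest wildtype library by little. Sulfotransferases had 5 positive and 2 negative differences, with Sult1d1 at 0.39 (SE 0.24) and Sult1c2 at -0.76 (SE 0.42). Of 13 conjugate transporters, 8 differences were negative, including Abcc2, which exports glutathione and glucuronide conjugates, at -0.57 (SE 0.26).

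The NRF2 regulators had 6 positive and 5 negative differences. Maff, a small partner protein of NRF2, was the 1 with an unadjusted p under 0.05, at 2.73, 3.96, 2.75 and 5.21 CPM across knockout replicates 1 to 4, against 3.47, 2.00, 1.58 and 1.81 CPM across wildtype replicates 1 to 4. Its 2 highest libraries, knockout replicates 4 and 2, were those with the highest heat shock transcripts, which summed to 444, 1036, 488 and 1539 CPM across knockout replicates 1 to 4, against 443 to 576 CPM in wildtype libraries. The part of heat shock genes in this was not tested. Of 20 other NRF2 target genes, 8 differences were positive and 12 negative (median -0.02). At an unadjusted edgeR p under 0.05, 2.17% of all genes tested were higher and 1.84% lower. Of these target genes, Cbr1, a carbonyl reductase, was higher at that p (log2 difference 0.54, SE 0.22). Blvrb, which reduces biliverdin (log2 difference -0.61, SE 0.25), and the malic enzyme gene Me1 were lower.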

How the data were processed

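RNA from 4 kidneys labelled knockout and 4 labelled wildtype was sequenced from total RNA, per the labels' protocols. The authors deposited whole-number counts of reads per Ensembl gene, unnormalized, with a file for each library. Per the submitters' processing notes, STAR, HTSeq and edgeR were used with the genome build mm9; neither tool versions nor the gene annotation is given in the sources used here. By the names of the deposited files, counting ignored strand although the kit keeps it, so reads of overlapping genes on either strand cannot be told apart. Reads with several equal places were set aside in the deposited counts, which leaves near-identical genes uncertain. The 5 closing lines of each file, which name no gene, were kept out: reads outside genes were 11.6% to 16.2%, ambiguous reads 2.05% to 2.31% and reads with no unique place 15.8% to 20.9% of the total.

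Libraries were grouped by title. Over 28 pairs of libraries, counts differed by 10.8 to 85.5 in chi-square per gene, so none was a copy of another. The test was edgeR 4.0.16 (R 4.3.3), quasi-likelihood, two-sided, robust, with TMM scaling and filterByExpr (minimum count 10, minimum total 15), over 14433 genes with genotype as the only term. p-values were adjusted over all these genes by Benjamini-Hochberg with a threshold of 0.05. Class sums of CPM carry no test. The script was checked on simulated counts, drawn independently with the same dispersion for every gene. These lack the adrenal, heat shock and clock-gene patterns of the libraries, so the check cannot show what differences the test would miss here. A floor of 3 counts, and intervals, cover counting error or library spread only.

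Positions and exon lengths were taken by identifier from GENCODE M21 (GRCm38), with no conversion from mm9. Overlap between genes was measured with 50-base exon windows along the longest protein-coding transcript of each gene. These were sought in the transcripts of other genes, on either strand. Promoter windows come from RefSeq (GRCm38.p6, 32851 promoters; 31 of 37 members matched).

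The members, the related gene lists and the alternatives were chosen with earlier results of these data known. Members chosen for full values were, in each class, the 2 highest per kilobase and the 2 with the lowest p. Those whose groups did not overlap or that had a library far from its group, and the 6 redox genes, were added. Of these, Gstt1 and Gstt3 are given by range, and Gstk1, Gsto1 and Gsto2 by mean and SD. From each related list the rule took the 2 with the lowest p and the most abundant. Only some of these are given. Me1, Acy1, Npas2, Slc12a1, Aqp3, Fga, Ahsg, Cps1, Fgb, Cyp7b1, Akr1c21, Xist and Ddx3y fall outside this rule, as do the other members given by range. Alternatives were other scalings, no count filter, other count minimums, DESeq2 1.42.0, limma-voom (limma 3.58.1), a replicate block, each library left out, and libraries with adrenal, heat shock or clock-gene patterns left out, the last chosen after seeing the data. Some results on these genes are not reported here.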

Additional observations from a re-analysis of the deposited data

Results flagged for a closer look

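In a group of 4 libraries, 1 library was counted as far from the others when its gap to the nearest, as a share of the group's range, exceeded Dixon's 95% critical value, which chance gives in about 1 in 20 groups. Over the 74 groups of single genes checked, this picked out Gstp3 and Nqo1, each in 1 group. Class sums were checked in the same way but are not among the 74. They gave the mu-class and UGT1A entries below. Gstp3 was high in knockout replicate 3, at 35.3 CPM against 5.46 to 10.1 CPM in the other knockout libraries. Nqo1 was high in wildtype replicate 1, at 86.5 CPM against 45.6 to 51.7 CPM in the other wildtype libraries. The mu-class sum was low in knockout replicate 3, at 386 CPM against 467 to 479.9 CPM in the other knockout libraries. The UGT1A sum was low in wildtype replicate 1, at 73.6 CPM against 110.1 to 117 CPM in the other wildtype libraries.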

How the results depend on the processing

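No member passed the adjusted threshold under any of the alternatives run. The number of members at an unadjusted p under 0.05 was 3 in the reported fit, 5 with a replicate block, 1 without the clock-shifted libraries, and 2 to 7 with single libraries left out, 7 being without knockout replicate 3. The labels do not say that same-numbered libraries are paired, as the replicate block assumes. Deviations of same-numbered libraries correlated at 0.226, -0.23, 0.282 and 0.293, and those of other pairs ran from -0.43 to 0.453. With so few libraries these values cannot settle whether there was a pairing. The block turned no difference round. The number of members whose groups did not overlap was 1 with 8 libraries, 1 to 4 with single libraries left out (4 without knockout replicate 3), 5 without the adrenal-marked libraries, 5 without the heat-shock libraries and 3 without the clock-shifted ones; fewer libraries make non-overlap easier. Single libraries moved the class sums, which carry no test. With single libraries left out, the log2 ratio of sums ran from -1.02 to 0.58 for UGT2, -0.02 to 0.35 for alpha, -0.036 to 0.20 for kappa, -0.12 to 0.06 for mu, -0.18 to 0.09 for UGT1A, -0.08 to 0.07 over the glutathione transferases and -0.32 to 0.12 over the glucuronosyltransferases; that of UGT3A was 0.05 without the heat-shock libraries. The pi, theta, omega and zeta sums and the UGT2 sum without Ugt2b38 kept their sign under each alternative run on them. Among the log2 differences of single genes, 26 values changed sign. With single libraries left out, Ugt2b38 ran from -1.24 (without knockout replicate 3) to 1.39, and Gsta3 from -0.13 (without knockout replicate 1) to 0.30. Gstk1 ran from -0.036 to 0.20, negative without knockout replicate 1 or wildtype replicate 2, and Gsto2 from -0.053 to 0.42, negative without the same libraries. Gstm1 ran from -0.25 to 0.0053 (without wildtype replicate 4), Gstp1 from -0.15 to 0.063 (positive without knockout replicate 4 or wildtype replicate 3), and Gstt2 from -0.0079 to 0.35 (negative without wildtype replicate 2 or 4). Ugt3a1 ran from -0.17 to 0.068 (positive without knockout replicate 2 or wildtype replicate 4), Hmox1 from -0.027 to 0.18 (negative without knockout replicate 2 or wildtype replicate 1), and Nqo1 from -0.22 to 0.24 (positive without knockout replicate 3 or 4 or wildtype replicate 1). Ugt1a7c ran from -0.84 to -0.07, Ugt2b5 from -1.01 to -0.38 and Gsta2 from 0.03 to 0.89 with no change of sign. By limma-voom, Ugt2b38 was at -0.39. Without the adrenal-marked libraries Hmox1 was at -0.11 and Nqo1 at 0.052; without the heat-shock libraries Gstp1 was at 0.012, Ugt3a2 at 0.066 and Hmox1 at -0.10; without the clock-shifted libraries Gstp1 was at 0.0057. With total counts and no TMM scaling, Nqo1 was at 0.0026. The cause was not tested. At these depths 3 counts correspond to 0.188 to 0.223 CPM, near the level of Ugt2b38 in its 4 low libraries.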

Other observations

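A gene outside the families, named after its values were seen, was high in the same 4 libraries as Ugt2b38. Gm4737 (chromosome 16, 46152985 to 46155077 on GRCm38) was at 0.571, 0.319, 13.0 and 9.09 CPM across knockout replicates 1 to 4, against 0.817, 17.3, 20.7 and 0.258 CPM across wildtype replicates 1 to 4. Among regulators of conjugation genes, 8 of 13 tested differences were negative (median -0.09). Nr1i2, which encodes the xenobiotic receptor PXR, had a log2 difference of 0.44 (SE 0.27), and Hnf4a, a regulator of proximal tubule genes, one of -0.19 (SE 0.17). Collecting duct and medulla markers had 9 of 10 positive differences, against 51.3% over all genes tested. By edgeR 4 were higher at an unadjusted p under 0.05, against 2.17% of all genes tested. Cryab had the lowest p, at 211, 222, 142 and 179 CPM across knockout replicates 1 to 4. Its wildtype replicates 1 to 4 were at 129.6, 94.9, 139 and 112 CPM (log2 difference 0.66, SE 0.16, edgeR adjusted p = 0.957). The groups thus did not overlap, as in 1.03% of all genes tested in this direction. The other markers higher at the unadjusted p were Aqp2, Aqp3 and Slc12a1 of the thick ascending limb. Without Slc12a1 and Umod, another gene of that segment, the other 8 summed to 940.2 to 1537 CPM in knockout and 844 to 1020.0 CPM in wildtype libraries.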
